A study of Mus musculus with 6 samples.

Results

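The transcripts described here are 8 CC chemokine genes, Ccl3, Ccl4, Ccl9, Ccl6, Ccl2, Ccl7, Ccl5 and Ccl22, taken by name from a table of 23060 rows. They were chosen by name with their FPKM values in the control and tachypaced libraries of this table known, so their levels and their differences between the groups are given as a description, with no p-value for any of them. All samples carry the label HL-1, the name of a cardiomyocyte line from mouse atrium, and a wild-type genotype, and were grown in Claycomb medium with serum and norepinephrine. There were 3 control and 3 tachypaced libraries. Tachypacing stimulates cultured cells electrically at a fast rate to imitate atrial fibrillation, and the labels give neither its rate nor its duration. The title of the series speaks of macrophages, whereas every sample label names HL-1 cells, and the labels do not say how the 2 are related. The labels do not state whether replicates came from different cultures. All p-values here therefore rest on the variation among these 6 libraries, part or all of which may be technical.

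Chemokines are small secreted proteins that direct the migration of leukocytes through G protein-coupled receptors, and those of the CC class carry a pair of adjacent cysteines near the amino terminus. Macrophages and other myeloid cells release several of them after inflammatory stimulation, and in the heart they are known for the recruitment of monocytes after injury. Ccl3 and Ccl4 are the macrophage inflammatory proteins, and Ccl5 is also called RANTES. Ccl3, Ccl5, Ccl6, Ccl7 and Ccl9 can act on Ccr1. Ccl2 and Ccl7, the monocyte chemoattractant proteins, act on Ccr2, and Ccl22 acts on Ccr4.

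The libraries carried macrophage rather than cardiac transcripts. Of 15 cardiomyocyte markers 12 had a mean below 0.1 FPKM (a fragment number divided by transcript length and library size) and 7, among them Myh6, Actc1 and Nkx2-5, were listed at 0 in every library, and the summed level ran from 3.37 to 4.14 FPKM in control and from 3.95 to 4.12 FPKM in tachypaced libraries. The summed level of 14 macrophage markers ran from 1148 to 1290 FPKM in control and from 1421 to 1578 FPKM in tachypaced libraries, although 3 of the 14 (C1qa, C1qb and Mrc1) had 0 FPKM in all libraries. This sum was therefore itself higher in tachypaced libraries, and its part in the chemokine differences was not tested. In the limma fit described below, 2 of 8 tested markers (Lyz2 and Cd14) were called higher, against 2.3% of all tested genes. Of the 8 markers, 7 had a log2 fold change above 0, and Csf1r was level at -0.008. Groups overlapped for Csf1r, Adgre1, Itgam and Ptprc and were separate for Lyz2, Cd14, Cd68 and Tyrobp. In bulk RNA a change in the number of cells of a type and a change in RNA per cell cannot be told apart. Other sources of CC chemokines were scarce by their markers. The sums were at most 2.39 FPKM for 9 T and NK cell, 2.77 FPKM for 10 neutrophil, 0.706 FPKM for 5 B cell and 0.0290 FPKM for 7 mast cell and basophil markers. Of 10 dendritic cell markers 7 had a mean below 0.1 FPKM, and the sum of 14.2 to 17.4 FPKM came mostly from Cd83, which macrophages also express. Sums of 8 fibroblast and 7 endothelial markers reached at most 0.144 and 1.93 FPKM.

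Of the 8 genes, 7 lie on chromosome 11 and 1, Ccl22, on chromosome 8 (94745590 to 94751699, GRCm38, GENCODE M21). Ccl2 (82035571 to 82037453) and Ccl7 (82045712 to 82047525) are neighbours on the plus strand of chromosome 11. The other 5 occupy 138.9 kb further along: Ccl5 (83525778 to 83530518), Ccl9 (83572919 to 83578636), Ccl6 (83587882 to 83593087) and Ccl3 (83647844 to 83649355) on the minus strand and Ccl4 (83662584 to 83664683) on the plus strand. Ccl3 and Ccl4 are divergent, with 13.2 kb between their starts. All 8 genes are protein-coding in the annotation. None of their annotated exons overlaps an exon of another gene, and no stretch of 31 bases is shared between the annotated transcripts of any 2 of these genes.

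RefSeq (GRCm38.p6) promoter entries existed for 4 of the 8 genes. The 250 bases before the start of Ccl3, Ccl9 and Ccl6, all on the minus strand, are printed here, since these genes of the same cluster covered the extremes of expression: Ccl3 was the most abundant chemokine, Ccl9 was abundant, and Ccl6, the gene between them, was near 0. Capitals mark matches, on either strand, to AP-1 (TGANTCA), C/EBP (TTNNGCAA), PU.1 (GAGGAA), the TATA box (TATAAA) or the NF-kB motif. The windows are chr11:83649379-83649628 for Ccl3, chr11:83578637-83578886 for Ccl9 and chr11:83593088-83593337 for Ccl6. Distances are counted from the RefSeq start. For Ccl3 this start lies upstream of the GENCODE start given above (83649355), and the bases between the starts are outside its window. The windows of Ccl9 and Ccl6 adjoin their GENCODE starts.
Ccl3: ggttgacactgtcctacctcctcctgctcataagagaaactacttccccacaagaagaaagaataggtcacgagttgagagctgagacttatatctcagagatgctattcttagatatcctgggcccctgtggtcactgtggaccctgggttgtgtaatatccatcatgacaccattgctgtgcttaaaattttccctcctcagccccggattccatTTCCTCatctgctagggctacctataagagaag
Ccl9: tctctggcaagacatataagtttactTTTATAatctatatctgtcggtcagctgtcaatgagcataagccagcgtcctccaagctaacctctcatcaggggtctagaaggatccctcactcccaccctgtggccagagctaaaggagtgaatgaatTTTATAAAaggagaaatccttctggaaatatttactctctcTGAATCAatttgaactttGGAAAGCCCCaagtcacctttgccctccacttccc
Ccl6: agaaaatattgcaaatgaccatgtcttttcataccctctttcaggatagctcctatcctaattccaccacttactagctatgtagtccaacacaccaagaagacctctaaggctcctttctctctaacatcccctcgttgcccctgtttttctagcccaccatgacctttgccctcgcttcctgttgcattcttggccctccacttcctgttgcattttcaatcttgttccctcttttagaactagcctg
The Ccl9 window held an AP-1 match 53 to 47 bases before the start and an NF-kB match 35 to 26 bases before it. It also held TATA box matches at 224 to 219, 94 to 89 and 92 to 87 bases, of which the last 2 overlap on opposite strands. The Ccl3 window held a single match, to PU.1, at 33 to 28 bases before the RefSeq start. The Ccl6 and Ccl22 windows held none of these letters. Among 32851 promoter windows of the same length, 6.75% held the AP-1, 9.56% the C/EBP, 23.3% the PU.1, 12.4% the TATA box and 3.90% the NF-kB letters, so single matches to the PU.1 letters are common. These are matches of letters only.

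Ccl3 and Ccl4 were the most abundant members and differed most between the groups among the members above 100 FPKM. Ccl3 stood at 1989, 1342 and 1217 FPKM in control replicates 1, 2 and 3 and at 2877, 3273 and 2440 FPKM in tachypaced replicates 1, 2 and 3. Every tachypaced library was above every control library, and the lowest tachypaced value was 1.23 times the highest control value. The group means were 1516 ± 414 and 2864 ± 416 FPKM (SD, n = 3 each), a ratio of 1.89 and a difference of 0.94 (SE 0.17) on the log2(FPKM + 1) scale. By mean level Ccl3 ranked 20th among all 23060 rows in control and 10th in tachypaced libraries.

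Ccl4 stood at 323, 226 and 191 FPKM in the control and at 452, 506 and 406 FPKM in the tachypaced libraries. Its groups did not overlap either. The ratio of the means was 1.85, and the log2 difference was 0.91 (SE 0.17). Ccl9, also called MIP-1 gamma, a Ccr1 ligand found in rodents, stood at 169, 125 and 116 FPKM in control and at 209, 226 and 194 FPKM in tachypaced libraries. Here too all tachypaced libraries were above all controls, with a smaller ratio of the means of 1.53 and a log2 difference of 0.63 (SE 0.13).

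Ccl5 was less abundant, and its groups overlapped. It stood at 14.8, 9.83 and 9.36 FPKM in control and at 13.7, 12.6 and 10.9 FPKM in tachypaced libraries. Its highest value was in control replicate 1, and its lowest values were in the other controls. The means of 11.3 ± 3.05 and 12.4 ± 1.42 FPKM (SD, n = 3 each) differed by less than the spread between control libraries, with a log2 difference of 0.14 (SE 0.15). Ccl22, a chemokine that attracts T cells and is made by macrophages and dendritic cells, stood at 1.36, 1.63 and 1.30 FPKM in control and at 1.52, 1.61 and 1.59 FPKM in tachypaced libraries. Its highest value was again in a control library, and the log2 difference was 0.08 (SE 0.09).

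The monocyte chemoattractants were low. Ccl2 stood at 1.10, 0.893 and 0.327 FPKM in control and at 1.67, 2.04 and 1.25 FPKM in tachypaced libraries. Its groups did not overlap, though the gap between them was small. The ratio of the means was 2.14, above that of Ccl3, while the log2(FPKM + 1) difference of 0.60 (SE 0.18) was below it: at levels near 1 FPKM the added 1 takes up much of the change, and with 0.1 added in its place the difference was 1.11. Ccl7 was below 1 FPKM in every library, at 0.158, 0.223 and 0.0763 FPKM in control and at 0.310, 0.685 and 0.233 FPKM in tachypaced libraries. Its lowest tachypaced value was 1.05 times its highest control value, and the tachypaced mean rested largely on replicate 2. Its log2 difference was 0.28 with 1 added and 0.96 with 0.1 added.

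Ccl6, another Ccr1 ligand found in rodents, was listed at 0 in control replicate 1. It stood at 0.123 and 0.145 FPKM in control replicates 2 and 3 and at 0.143, 0.0524 and 0.205 FPKM in the tachypaced libraries. These levels overlapped, and no difference could be read from them. Ccl6 and Ccl7 had means below 1 FPKM over the 6 libraries and did not enter the fit across genes. The other 6 did.

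**Figure D1:**
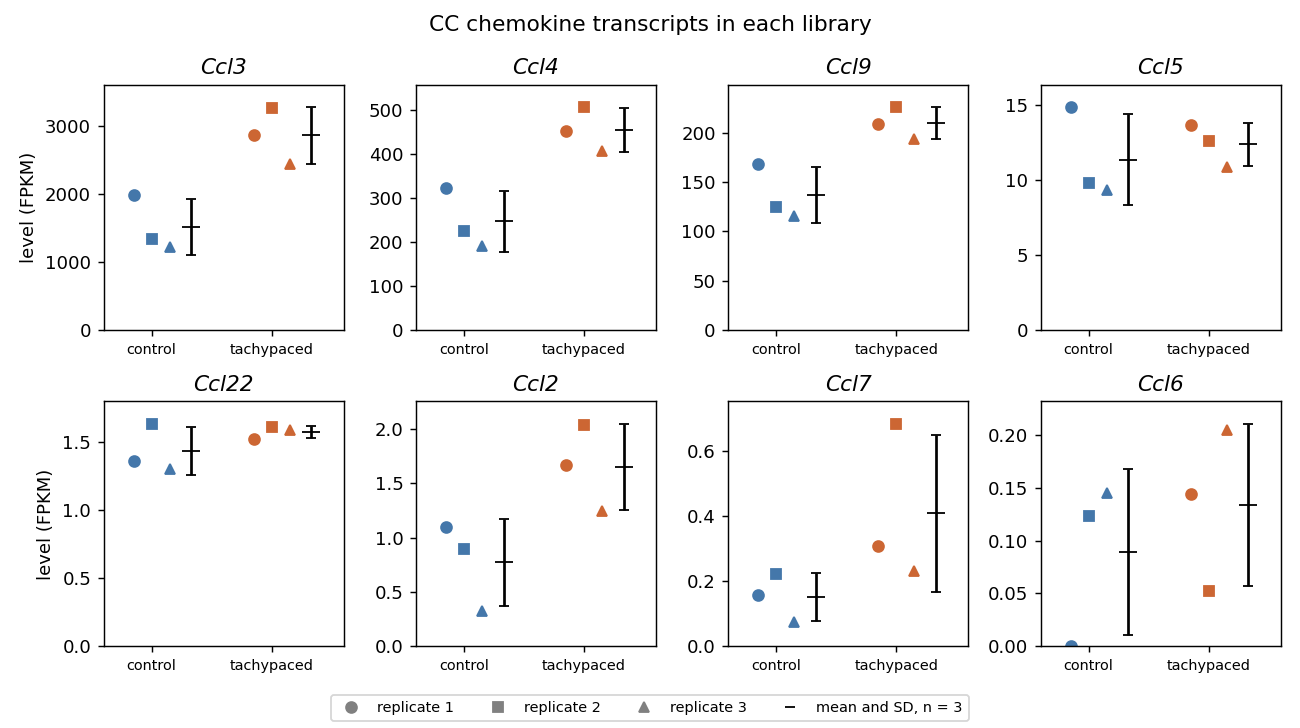
Level in FPKM (y axis, from 0, a separate scale per gene) of the 8 CC chemokines in the 3 control and 3 tachypaced libraries, with a marker shape per replicate number and the mean and SD beside each group. The groups are separate for Ccl3, Ccl4, Ccl9, Ccl2 and Ccl7 and overlap for Ccl5, Ccl22 and Ccl6.

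Over all 6 libraries the mean level, in FPKM and so per transcript length, fell in the order Ccl3, Ccl4, Ccl9, Ccl5, Ccl22, Ccl2, Ccl7 and Ccl6. Over the 6 libraries the levels of neighbours in this order overlapped for Ccl4 and Ccl9, Ccl22 and Ccl2, Ccl2 and Ccl7, and Ccl7 and Ccl6. Ccl4 was above Ccl9, and Ccl2 above Ccl7, within each single library, whereas the order of Ccl22 and Ccl2 and that of Ccl7 and Ccl6 changed between libraries. The remaining neighbours in the order were separate. The mean was 2190 FPKM for Ccl3, 351 for Ccl4, 173 for Ccl9, 11.9 for Ccl5, 1.503 for Ccl22, 1.21 for Ccl2, 0.281 for Ccl7 and 0.111 for Ccl6.

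In all 8 genes the tachypaced mean was above the control mean, and in 5 of the 8 the groups did not overlap. For Ccl5, Ccl22 and Ccl6 they overlapped. All 6 tested members had a log2 fold change above 0, as had 4259 of all 10361 tested genes. The transcripts of the mitochondrial genome, listed as a sign of RNA quality, were also higher: their 13 genes summed to 32725 to 35104 FPKM in control and 37764 to 41242 FPKM in tachypaced libraries, 3 of the 13 were called higher and their median log2 fold change was 0.21, and their part in the chemokine differences was not tested. Of the 6 members tested, 4 had groups that did not overlap, with all 4 higher in tachypaced libraries. Among all 10361 tested genes, 34.9% had groups that did not overlap, 12.6% with tachypaced libraries higher. In the limma fit across these genes, with Benjamini-Hochberg adjustment at a threshold of 0.05, 3 of the 6 members were among the genes called higher (Ccl3, Ccl4 and Ccl9) and 0 among those called lower. Of all tested genes 5.52% were called, 2.3% higher and 3.22% lower. The members were chosen with this contrast known, so nothing is read from these counts, and the calls are not a test of the members. The median log2 fold change was 0.61 over the 6 tested members and -0.04 over all tested genes.

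The 3 calls depended on the libraries and on the settings. Leaving out control replicate 1 gave 5 called members, with Ccl2 and Ccl5 added, and leaving out any other single library gave 0. The count was also 0 without the filter on low values, with quantile normalization and without the mean-variance trend.

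Control replicate 1 lay nearest to the tachypaced libraries for several members. Its level was 1.55 times the mean of the other controls for Ccl3, 1.55 times for Ccl4, 1.40 times for Ccl9 and 1.55 times for Ccl5. For Ccl2 it was 1.80 times that mean, for Ccl7 1.05 times and for Ccl22 0.93 times, and Ccl6 was listed at 0 there. Tachypaced means were 2.24 times the mean of those other controls for Ccl3, 2.18 times for Ccl4, 1.74 times for Ccl9 and 1.29 times for Ccl5. For Ccl5, control replicate 1 was above the tachypaced mean, and for Ccl3, Ccl4 and Ccl9 it was below every tachypaced library. Without it the log2 differences were 1.15 for Ccl3, 1.12 for Ccl4, 0.79 for Ccl9, 0.73 for Ccl2, 0.33 for Ccl5 and 0.06 for Ccl22.

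**Figure D2:**
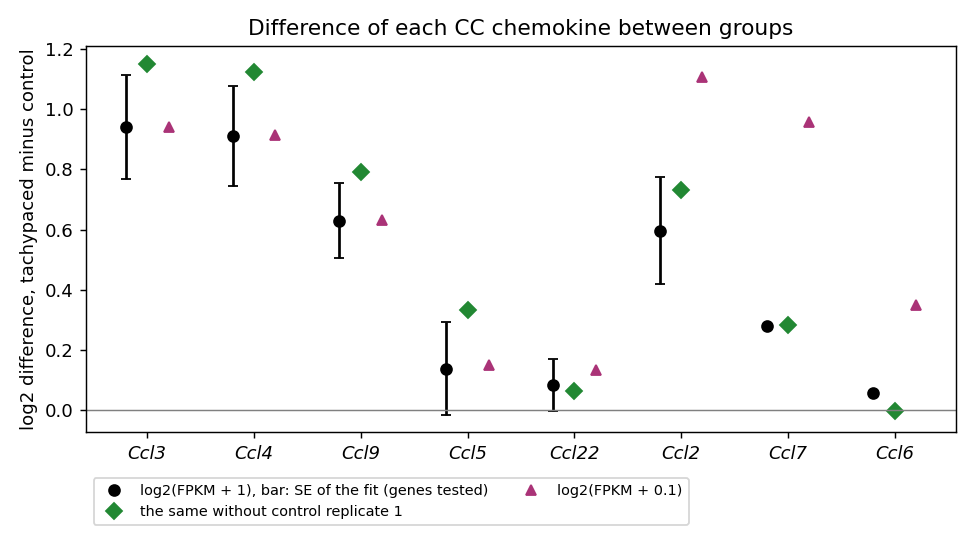
Difference between tachypaced and control means on a log2 scale (y axis) for each gene (x axis), on log2(FPKM + 1) with the standard error of the fit for the 6 tested genes, without control replicate 1, and on log2(FPKM + 0.1). The differences of Ccl3 (0.94), Ccl4 (0.91) and Ccl9 (0.63) hardly move with the added constant, whereas those of Ccl2 (0.60 and 1.11) and Ccl7 (0.28 and 0.96) do.

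Proportions within a library do not depend on how libraries are scaled to each other. The ratio of Ccl3 to Ccl4 was 6.16, 5.94 and 6.39 in control and 6.37, 6.47 and 6.01 in tachypaced libraries, and on this proportion of the divergent pair the groups overlapped. The ratio of Ccl3 to Ccl9 was 11.8, 10.7 and 10.5 in control and 13.7, 14.5 and 12.6 in tachypaced libraries, without overlap. The ratio of Ccl3 to Ccl5 was 134, 137 and 130 in control and 211, 260 and 225 in tachypaced libraries. On this ratio control replicate 1 sat with the other controls, and the groups did not overlap (134 ± 3.26 and 232 ± 25.3, SD, n = 3 each). Control replicate 1 was 1.55 times the mean of the other controls for both Ccl3 and Ccl5, so its rise cancels in their ratio. For Ccl22, whose groups also overlapped, it was 0.93 times that mean, so its rise in Ccl3 would not cancel in a ratio to Ccl22. The small spread of the Ccl3 to Ccl5 ratio among controls therefore holds for this choice of gene only. With 3 against 3 libraries an exact permutation test of such a ratio cannot give a p below 0.1.

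Ccl3, Ccl4 and Ccl9 together made up between 98.99% and 99.4% of the FPKM of all CC chemokine rows in every library, and Ccl3 alone between 78.5% and 81.3%. The share of Ccl4 overlapped between the groups, at 12.8% ± 0.416 in control and 12.8% ± 0.385 in tachypaced libraries. The share of Ccl9 was 7.20% ± 0.411 and 5.94% ± 0.363 (SD, n = 3 each), without overlap. The 8 genes summed to 0.608%, 0.412% and 0.368% of all FPKM in the control and to 0.838%, 0.931% and 0.728% in the tachypaced libraries.

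**Figure D3:**
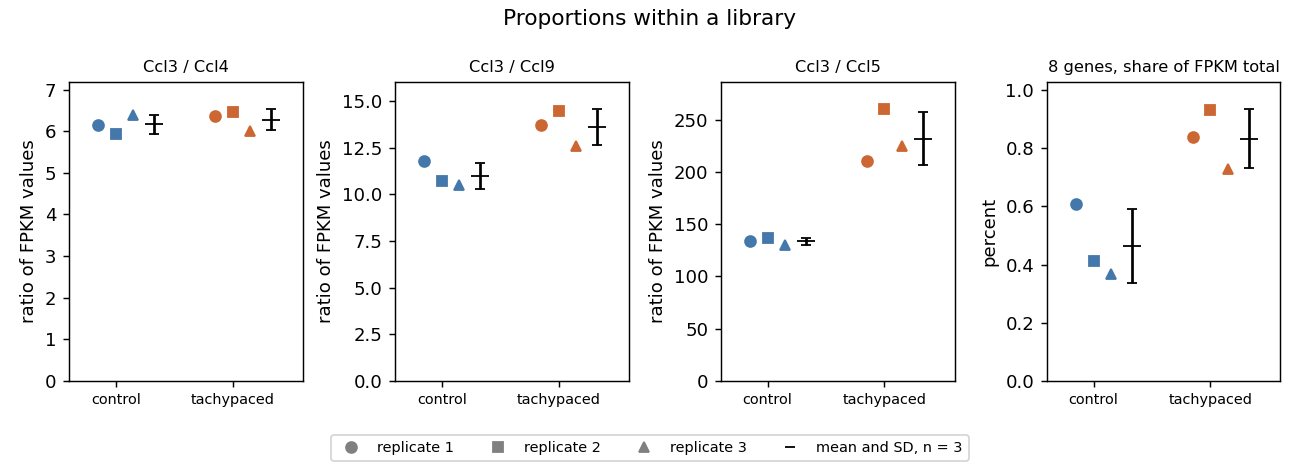
Ratio of the FPKM values of Ccl3 to those of Ccl4, Ccl9 and Ccl5, and the summed share of the 8 genes in percent of each library's FPKM total (y axes, from 0), in control and tachypaced libraries, with mean and SD. The ratio to Ccl4 overlaps between groups near 6, the ratio to Ccl5 is 130 to 137 in every control and at least 211 in every tachypaced library.

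Ccl3, Ccl4, Ccl9 and Ccl2 put the 6 libraries in the same order, with control replicate 3 lowest, then control replicates 2 and 1, then tachypaced replicates 3, 1 and 2. The Pearson correlation of log2(FPKM + 1) over the 6 libraries ran from 0.93 to 0.998 over the 6 pairs of these genes. For Ccl5 with Ccl3 it was 0.68, for Ccl22 with Ccl3 0.46 and for Ccl6 with Ccl3 -0.14. These points share library, scaling and group, so the correlations are descriptions of these libraries only.

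Such a pattern was common in the table. Of 9685 other tested genes with names, 375 had a correlation above 0.95 with Ccl3. The 8 highest were Lyz2 (lysozyme, 0.999), Lilrb4a (an inhibitory leukocyte immunoglobulin-like receptor, 0.999), Marcksl1 (0.999), Wars (the cytosolic tryptophanyl-tRNA synthetase, 0.998), Tmem176a (0.998), Babam2 (0.997), H1f0 (a linker histone, 0.997) and Hk3 (a hexokinase of myeloid cells, 0.997). Their changes differed in size: Lilrb4a went from 127 ± 36.0 to 238 ± 33.5 FPKM, and Babam2 from 52.1 ± 4.48 to 62.5 ± 2.11 FPKM (SD, n = 3 each). The mean of the standardised values of the 6 tested members was most like Rab14 (0.996), Il10rb (0.994), Pld3 (0.994), Man2b2 (0.993) and Mreg (0.993), and 280 genes exceeded 0.95.

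The rest of the CC family was almost silent. Of 16 other CC chemokine rows 14 were listed at 0 in every library. These included Ccl8, Ccl11 and Ccl12, which lie next to Ccl2 and Ccl7 and encode further ligands of monocytes and eosinophils. Ccl17, which lies near Ccl22 and shares its receptor Ccr4, stood at 0.105 FPKM in control replicate 1 and was listed at 0 elsewhere. Ccl25, best known as a chemokine of thymus and gut, was the only other one with a mean of at least 1 FPKM. It stood at 4.88, 4.64 and 4.11 FPKM in control and at 5.96, 6.12 and 5.32 FPKM in tachypaced libraries. Its groups did not overlap, but the difference of 0.29 (SE 0.08) did not pass the limma test (adjusted p = 0.0653). Without control replicate 1 it passed.

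Receptors for these ligands were scarce in the same libraries. Of 15 CC and atypical receptor genes, 12 never exceeded 0.1 FPKM, their highest value being 0.0693 FPKM. Ccr2, the receptor of Ccl2 and Ccl7, stood at 0.0214 ± 0.0235 and 0.0402 ± 0.0257 FPKM, and Ccr4, the receptor of Ccl22, was listed at 0 in all controls and in tachypaced replicate 1, with 0.0257 and 0.0282 FPKM in the others.

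Ccr1 was the highest receptor shared by several members. It stood at 0.424, 0.448 and 0.484 FPKM in control and at 0.687, 0.996 and 0.729 FPKM in tachypaced libraries. Its groups did not overlap. With a mean below 1 FPKM it was outside the fit. The limma fit without a filter called 0 of 15992 genes (3488 had an unadjusted p under 0.05), so that Ccr1 was not called there (adjusted p = 0.126) says nothing particular about it. Ccrl2, a non-signalling receptor of the chemoattractant chemerin, stood at 0.406, 0.270 and 0.111 FPKM in control and at 0.338, 0.583 and 0.650 FPKM in tachypaced libraries, and the groups overlapped. Ccr10, a receptor for skin and mucosal chemokines, was the only receptor tested. It stood at 1.13 ± 0.277 and 1.45 ± 0.164 FPKM (SD, n = 3 each) and did not pass in the limma fit (log2 fold change 0.20, SE 0.11, adjusted p = 0.253). Thus 0 of 1 tested receptors passed, and 0 had an unadjusted p under 0.05.

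Genes downstream and upstream in the pathway were counted in the same limma fit, in which 5.52% of all tested genes were called. Of 29 tested genes of chemokine receptor signalling (G protein subunits, arrestins, receptor kinases, RGS proteins and the Dock2 and Rac2 motility module) 1 rose and 0 fell, with a median log2 fold change of -0.002. It was Gng5, a G protein gamma subunit, at 106, 96.1 and 89.1 FPKM in control and 124, 135 and 126 FPKM in tachypaced libraries (limma log2 fold change 0.40, SE 0.07, adjusted p = 0.0435). Its groups did not overlap. Gnai2, the inhibitory alpha subunit through which chemokine receptors mainly signal in leukocytes, did not pass (limma log2 fold change -0.21, SE 0.07, adjusted p = 0.0987). It stood at 207, 232 and 251 FPKM in control and at 187, 204 and 202 FPKM in tachypaced libraries. Its groups did not overlap either, with the tachypaced libraries lower. Of the 29 tested signalling genes 13 had a log2 fold change above 0.

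Of 36 tested regulators of CC chemokine transcription and mRNA decay 2 rose and 0 fell, with a median of 0.06. Atf3, a stress-responsive transcription factor, stood at 98.6, 86.3 and 80.0 FPKM in control and at 111, 120 and 106 FPKM in tachypaced libraries (limma log2 fold change 0.34, SE 0.08, adjusted p = 0.0478). Cebpb, a transcription factor of macrophage inflammatory genes, stood at 62.1, 60.4 and 53.5 FPKM in control and at 75.1, 81.4 and 67.2 FPKM in tachypaced libraries (limma log2 fold change 0.34, SE 0.08, adjusted p = 0.0491). For both genes all tachypaced libraries were above all controls. The NF-kB subunit genes Rela, Relb, Rel, Nfkb1 and Nfkb2 did not pass, and neither did Nfkbia, which encodes the inhibitor that NF-kB induces. Both calls were lost with median of ratios scaling.

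Among 9 tested genes for proteases that trim chemokines and for proteoglycans that hold them, 2 rose and 0 fell, with a median of 0.20. Mmp9, gelatinase B, stood at 3.18, 2.98 and 2.58 FPKM in control and at 4.28, 4.50 and 3.99 FPKM in tachypaced libraries (limma log2 fold change 0.43, SE 0.09, adjusted p = 0.0435). Srgn, serglycin, the proteoglycan of leukocyte secretory granules, rose from 235 ± 16.7 to 290 ± 13.4 FPKM (limma log2 fold change 0.30, SE 0.06, adjusted p = 0.0435, n = 3 each). Both genes had separate groups. Dpp4, the peptidase that clips many chemokines, was listed at 0 in every library. The calls for Gng5, Atf3, Cebpb, Mmp9 and Srgn were all lost without the filter on low values, with quantile normalization, without the trend, and when any single library other than control replicate 1 was left out.

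Genes next to the chemokines on the chromosome were counted in the same way, again beside the 5.52% called over all tested genes. Of the 60 protein-coding neighbours, 10 on each side of the 3 places where members lie, 35 were tested in the limma fit, 0 rose and 1 fell, with a median log2 fold change of -0.01. It was Acaca, the acetyl-CoA carboxylase of fatty acid synthesis, 616 kb from Ccl3, at 11.01, 14.2 and 15.3 FPKM in control and 8.14, 8.18 and 9.53 FPKM in tachypaced libraries (limma log2 fold change -0.58, SE 0.11, adjusted p = 0.0435). Around the Ccl3 cluster alone, 11 neighbours were tested, with log2 fold changes from -0.58 to 0.39 and a median of -0.06. The highest of these, named after its value was seen, was Wfdc17, 55.8 kb from the start of Ccl3, which did not pass. At an unadjusted p under 0.05 the limma fit had 10 of the 35 neighbours, 7 of the 29 signalling genes, 10 of the 36 regulators and 5 of the 9 protease and proteoglycan genes, in either direction, against 3124 of all 10361 genes. Within the cluster itself Ccl6, between Ccl9 and Ccl3, was near 0 in both groups, and Ccl5 overlapped between the groups.

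**Figure D4:**
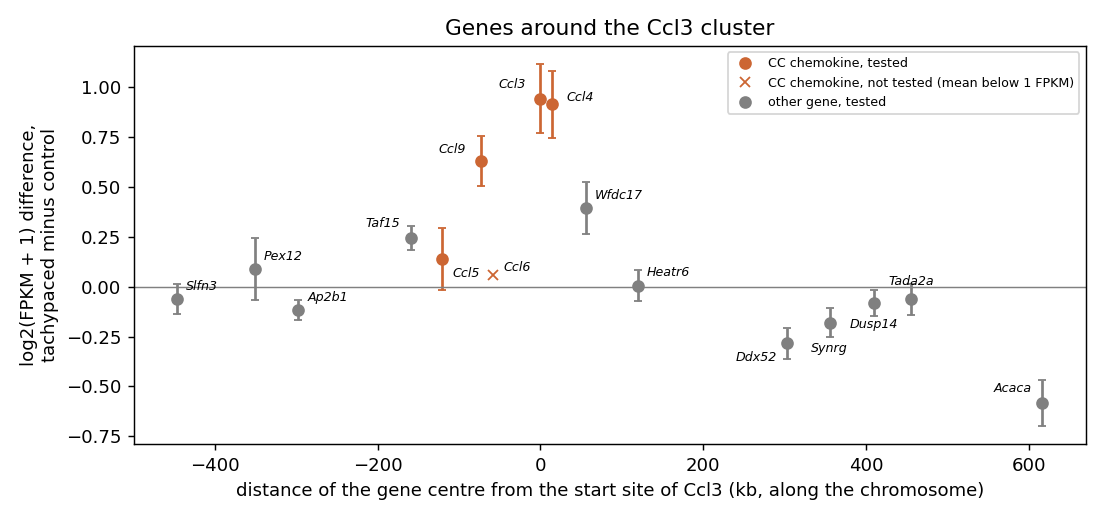
Log2(FPKM + 1) difference, tachypaced minus control (y axis), against the distance of each gene's centre from the start site of Ccl3 in kb (x axis), for the 5 CC chemokines of the cluster and the 11 tested neighbours, with bars for the standard error of the fit. Ccl3, Ccl4 and Ccl9 lie between 0.63 and 0.94, Ccl5 at 0.14, and the neighbours between -0.58 and 0.39.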

How the data were processed

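Total RNA of 3 control and 3 tachypaced libraries was sequenced after a SMARTER mRNA kit. The authors deposited FPKM values for 23060 gene names. The build was GRCm38 (mm10), as the submitters' processing notes state. Aligner, quantifier, annotation and strandedness: not given in the sources used here. FPKM totals were 411050 to 432244 per library. Low values did not fall on steps of whole reads (at most 6.67% of log2 ratios between libraries fell in any bin of width 0.05), so depth is unknown and no counting interval is given. No 2 libraries were identical. Columns were matched to samples by the descriptions.

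Genes averaging 1 FPKM or more (10361) were tested on log2(FPKM + 1) with limma 3.58.1 in R 4.3.3 (trend, two-sided, Benjamini-Hochberg over all tested genes, threshold 0.05). This scale understates changes of low genes. The steps were run on simulated data with independent noise for each gene and library. Those data held no shift of a whole library across genes, so they do not show how reliable the calls here are. The 8 members, and the lists of receptors, signalling genes, regulators, proteases, neighbours and cell type markers, were chosen with earlier results of these data known. Of the listed symbols Ccl21c, Trac and Ighm had no row, and 1 item is not reported here. Named are all members, listed genes past the test (at most 6 per list), receptors with a mean of at least 1 FPKM, Ccl8, Ccl12 and Ccl17, and the genes most like Ccl3 or the members' mean. Other names were chosen after their values were seen. Positions are from GENCODE M21 and promoters from RefSeq. Python 3.11.15, numpy 2.4.6, pandas 2.3.3 and matplotlib 3.10.9 were used.

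Alternatives were a pseudocount of 0.1, no filter, a minimum mean of 5 FPKM, 3 other scalings, no trend, robust hyperparameters, library weights, a replicate block and leaving out each library.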

Additional observations from a re-analysis of the deposited data

How the results depend on the processing

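Log2 differences of the members kept a positive sign in every alternative that gave a value, except that of Ccl6, which fell to -0.003 without control replicate 1. They ran from 0.80 to 1.15 for Ccl3, 0.74 to 1.12 for Ccl4, 0.52 to 0.79 for Ccl9, 0.40 to 1.11 for Ccl2, 0.02 to 0.33 for Ccl5 and 0.04 to 0.14 for Ccl22. Counts of calls depended far more on the processing, and the cause was not tested. Of all tested genes 572 were called, against 0 without a filter, 17 with quantile normalization, 1172 with a common total, 2 without the trend and 3096 with library weights. The common total called 250 higher and 922 lower, against 238 and 334. Without a filter, with quantile normalization and without the trend, 0 members, signalling genes, regulators, proteases and proteoglycans, or neighbours were called. Library weights called 8 signalling genes (3 higher, 5 lower), 11 regulators (9 higher, 2 lower) and 4 proteases and proteoglycans (4 higher, 0 lower). They also called 10 neighbours (4 higher, 6 lower) and 1 other CC chemokine (Ccl25, higher). Without control replicate 1, 3 signalling genes were called higher and 6 lower. Median of ratios scaling called 0 regulators and 2 neighbours. A minimum of 5 FPKM and a common total called 2 signalling genes and 4 neighbours each, and robust hyperparameters 3 neighbours. Leaving out each library gave 1 to 3109 calls over all genes, 0 to 5 members, 0 to 1 other CC chemokines, 0 to 9 signalling genes, 0 to 12 regulators, 0 to 6 proteases and proteoglycans and 0 to 11 neighbours, the highest each time without control replicate 1. The labels do not say whether libraries with the same replicate number were paired. Correlations of same-numbered deviations from the group means were 0.06, -0.03 and 0.16, the last being the highest of all pairs. Control replicate 1 was closer to tachypaced replicate 2 (0.08). Deviations from a mean of 3 libraries depend on each other, so these correlations cannot decide whether the libraries were paired. With the replicate block 925 genes, 4 members, 1 other CC chemokine and 3 neighbours were called. Depth is unknown, which limits what the values of Ccl6 and Ccl7 can show.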
